A study of Mus musculus with 17 samples.

Results

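The clustered protocadherins are cadherin-type adhesion proteins of the neuronal surface whose genes lie side by side in the alpha, beta and gamma arrays of mouse chromosome 18. They were taken here as every protein-coding gene with a Pcdha, Pcdhb or Pcdhg symbol of the numbered or C-type form, which gave 58 of the 78298 genes in the count tables, with 14 in the alpha, 22 in the beta and 22 in the gamma cluster. A low-count filter over all genes passed 53 of them, namely 12 alpha, 21 beta and 20 gamma genes.

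In each cluster, separate variable exons each have their own promoter, and a neuron uses only some of these promoters. The variable exons of the alpha and gamma genes are spliced to constant exons shared within the cluster, whereas each beta gene is complete without constant exons. The proteins bind identical copies on an opposing cell, a recognition step known for self-avoidance of branches of the same neuron. The gamma genes are also known from mouse work for the survival of spinal interneurons. The C-type genes at the end of the alpha and gamma clusters (Pcdhac1, Pcdhac2, Pcdhgc3, Pcdhgc4 and Pcdhgc5) differ in sequence from the others and are used more uniformly between neurons. Promoter choice in the other genes is known to depend on the insulator protein CTCF, cohesin and DNA methylation.

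Bulk RNA sequencing was done on mouse dorsal root ganglia, which hold the cell bodies of sensory neurons, from lumbar levels L4 to L6. The 17 libraries form 4 groups that cross genotype with nerve injury. There were 3 libraries from Twik1 (Kcnk1) knockout mice after chronic constriction injury (CCI KO, numbered 2, 3 and 4), 5 from wild-type mice after the same injury (CCI WT), 4 from sham-treated knockout mice (sham KO) and 5 from sham-treated wild-type mice (sham WT). Chronic constriction injury is a partial nerve injury made with loose ligatures, usually on the sciatic nerve, and Twik1 is a background potassium channel. All libraries carry the label day 30. The sources used here do not state the strain, sex or age of the mice, the nerve, the deleted part of Kcnk1 or any pooling of animals. Nor do they state that each library is a separate animal, and the p-values below therefore reflect the spread between these samples alone, which may be technical.

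Gene counts per library ranged from 52.5 to 73.6 M (M, mega). Kcnk1 itself had 78.3 to 89.0 CPM (counts per M, with library sizes scaled by TMM) in CCI KO, 106 to 121 CPM in CCI WT, 75.1 to 114 CPM in sham KO and 94.3 to 139 CPM in sham WT libraries. Transcript from the gene was therefore still counted in every library labelled knockout, and the counts cannot check the deleted part, so KO stands for the label. The sensory neuron markers Avil (843 to 1050 CPM) and Isl1 (124 to 161 CPM) were present in all libraries, and of 6 spinal cord markers Slc32a1 was at 0 in 16 of 17 libraries, Olig2 in 15, Gad2 in 8 and Olig1 in 5, whereas Aqp4 (4.08 to 11.7 CPM) and Slc1a2 (0.774 to 3.45 CPM) were at 0 in none. Sham KO libraries 1 and 2 stood apart from the other shams in the injury-induced transcription factor Atf3. They had 141 and 103 CPM of Atf3, sham KO libraries 3 and 4 had 11.1 and 13.2 CPM, and the sham WT libraries had 9.41 to 16.7 CPM. For the main results that use sham KO, values without libraries 1 and 2 are given as well. A number in the tables' names is the same for all shams and different for CCI KO and CCI WT. Its meaning is not given, and if it marks a batch, that batch cannot be told apart from injury, or from genotype after injury.

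Counts were found for 57 of the 58 genes, and a single member had the highest level in each cluster. Levels of different genes are compared as CPM per kilobase of exon that no other annotated gene shares, because reads in the shared constant exons cannot be given to a single gene. On this scale Pcdhac2, the last C-type gene of the alpha cluster, had the highest level of all members. It reached 24.6 CPM per unshared kilobase in CCI KO, 20 in CCI WT, 24.0 in sham KO and 23.3 ± 1.94 in sham WT libraries (SD, n = 5). Its neighbour in the array, Pcdhac1, followed with 9.04, 6.5, 9.28 and 8.55 ± 0.948 CPM per unshared kilobase in the same order of groups. The gamma C-type gene Pcdhgc3 led its cluster with 4.78, 4.49, 4.62 and 4.59 ± 0.666, and Pcdhb9 led the beta cluster with 6.86, 4.87, 4.99 and 3.85 ± 0.761. In sham WT ganglia Pcdhgc3 and Pcdhb9 differed by less than the SD of Pcdhb9, and their order is not resolved, whereas both stood below Pcdhac1 and Pcdhac2 by several SD.

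Below these 4 genes the levels in sham WT libraries lay closer together. Pcdha12 (2.91 ± 0.613 CPM per unshared kilobase) was next in the alpha cluster. Pcdhga3 (2.07 ± 0.281) and Pcdhga11 (1.74 ± 0.355) were next in the gamma cluster, and Pcdhb17 (1.85 ± 0.190) and Pcdhb20 (1.79 ± 0.282) in the beta cluster. Pcdhb17 and Pcdhb20 differed by less than the SD of either, and Pcdhga3 and Pcdhga11 by less than the larger SD. The median over tested genes was 1.55 in the alpha, 0.593 in the beta and 0.816 in the gamma cluster. The lowest tested members were Pcdha8, Pcdha1 and Pcdha5 of the alpha cluster (0.126, 0.661 and 0.754 CPM per unshared kilobase), Pcdhb2, Pcdhb13 and Pcdhb6 of the beta cluster (0.154, 0.246 and 0.335), and Pcdhgc5, Pcdhgb5 and Pcdhga9 of the gamma cluster (0.0408, 0.256 and 0.306). The C-type genes were thus at both ends of the range. Pcdhac2 was the highest member, and Pcdhgc5 was the lowest that passed the filter, with 174 counts in all over 15 of 17 libraries. Pcdhgc4 lay between them, at 1.09, 0.994, 1.13 and 1.19 ± 0.269 CPM per unshared kilobase in CCI KO, CCI WT, sham KO and sham WT libraries.

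**Figure D1:**
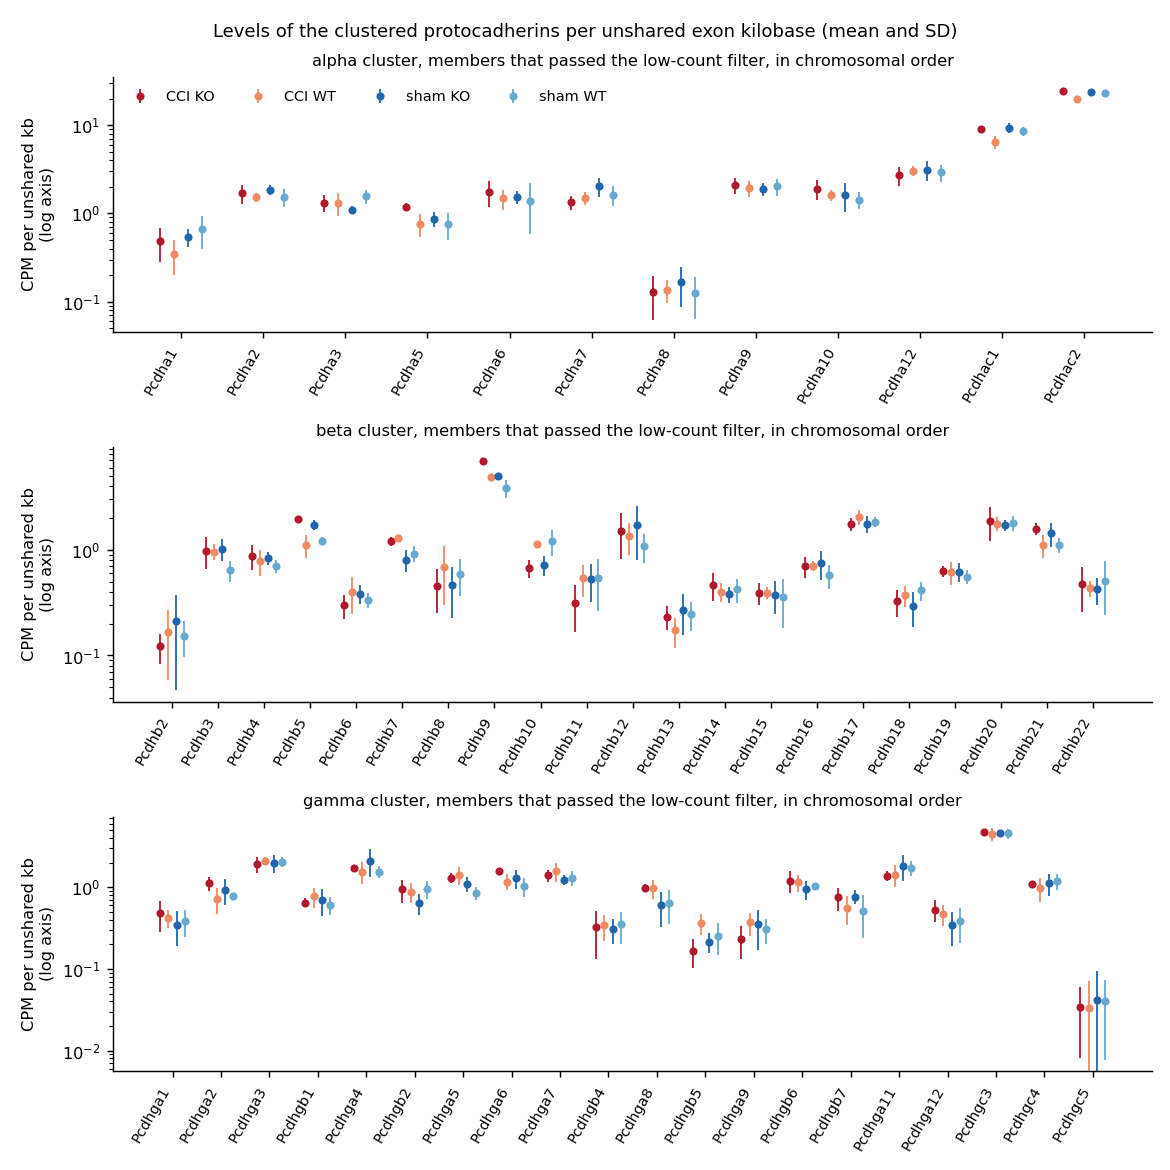
Level of every tested clustered protocadherin in CPM per kilobase of unshared exon (log axis), with genes in chromosomal order within the alpha, beta and gamma clusters. Points are group means and bars the SD between libraries (3 CCI KO, 5 CCI WT, 4 sham KO, 5 sham WT); bars that reach 0 run off the log axis. Pcdhac2 is highest at 23.3 in sham WT, and Pcdhgc3 (4.59) and Pcdhb9 (3.85) lead the gamma and beta clusters.

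Summed over genes, the alpha cluster took 43.7 to 53.7% of the family's counts, the beta cluster 26.8 to 35.7% and the gamma cluster 18.1 to 22.0%, depending on the library. The 2 alpha C-type genes held most of the alpha counts. Their share was 75.2 ± 1.99% in CCI KO, 72.0 ± 3.25% in CCI WT, 74.8 ± 2.52% in sham KO and 75.0 ± 2.12% in sham WT libraries. Pcdhac2 alone held 53.7 to 60.1% of the alpha counts over all 17 libraries. In the gamma cluster the 3 C-type genes held only 24.5 ± 1.86%, 23.5 ± 2.72%, 25.9 ± 2.90% and 27.2 ± 2.32% in CCI KO, CCI WT, sham KO and sham WT libraries. The gamma A-type genes held 56.7 ± 1.78% in CCI KO, 56.0 ± 2.91% in CCI WT, 55.9 ± 2.62% in sham KO and 52.9 ± 1.83% in sham WT libraries. Each share overlapped between the groups compared. They rest on reads assigned to 1 gene, so reads in the constant exons are not in them.

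Of the 5 members that did not pass the filter, Pcdhga10 had no count in any library, Pcdha4 and Pcdhb1 had 1 count each, Pcdha11 had 13 and Pcdhgb8 had 64. For some of them the annotation limits what could be counted. Pcdhga10 has no exon base free of another annotated gene, and 2634 of its bases lie under the long non-coding RNA gene Gm26672. Pcdha4 shares 2410 bases with Pcdha4b, and Pcdha11 shares 2597 with the long non-coding RNA gene Gm10545. The library kit is not stranded and reads there are ambiguous, and a low count is no measure of the gene's level. Pcdhb1 has all of its 2588 exon bases to itself and was still at 1 count. Over the tested members the unshared part of the exons ranged from 25.8% for Pcdhga11 to 100% for most beta genes.

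Members differed in how much they varied between libraries of 1 group, and the member of highest level varied least. The within-group coefficient of variation had a median of 22.1% in the alpha, 23.4% in the beta and 27.7% in the gamma cluster, against 22.3% over the 17310 tested genes in the same range of levels. It was lowest for Pcdhac2 (7.17%) and highest for Pcdhgc5 (104%). Counting error alone gives medians of 6.72%, 7.56% and 9.37% for the 3 clusters and 6.18% for the 17310 genes. Every tested member varied more between libraries than counting accounts for. The spread of the family as a whole was thus near that of other genes within its range of levels. Those genes were not matched to the members in level within that range.

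**Figure D2:**
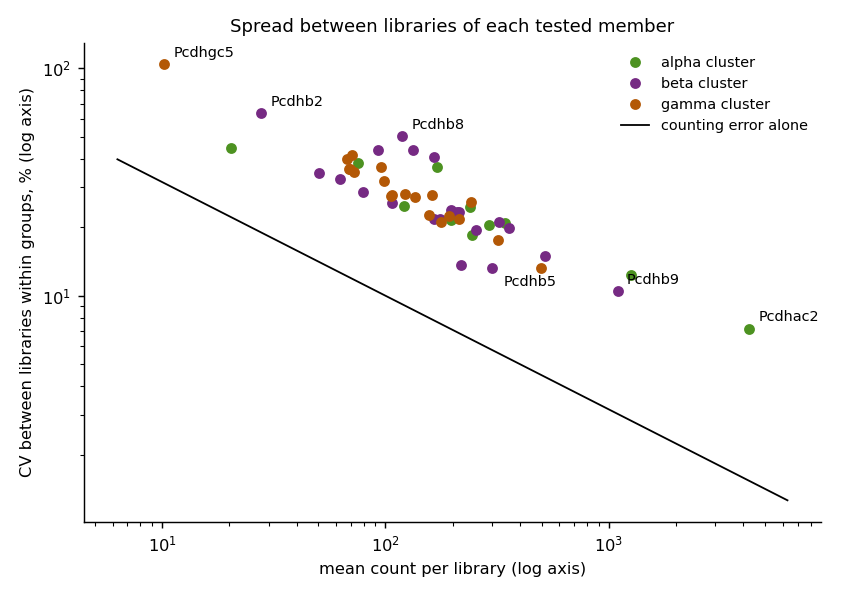
Coefficient of variation between libraries within groups (percent, log axis) against mean count per library (log axis) for the 53 tested members, coloured by cluster; the line is counting error alone. All points lie above the line, from 7.17% for Pcdhac2 to 104% for Pcdhgc5.

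Across the 4 groups, the summed level of the alpha cluster was lowest in injured wild-type ganglia and that of the beta cluster was highest in injured knockout ganglia. The alpha sum was 133 ± 7.73 CPM in CCI KO, 110 ± 6.95 CPM in CCI WT, 132 ± 8.33 CPM in sham KO and 127 ± 10.9 CPM in sham WT libraries. The CCI KO and CCI WT libraries did not overlap (125 to 140 against 101 to 117 CPM), and the CCI WT and sham WT libraries did. The beta sum was 91.5 ± 1.49, 82.6 ± 3.61, 82.2 ± 6.88 and 74.8 ± 4.25 CPM in the same order of groups. In the beta sum the CCI KO libraries (90 to 93 CPM) lay above the CCI WT libraries (77.2 to 86.7 CPM). They overlapped the sham KO libraries through sham KO library 1 at 92.1 CPM, while sham KO libraries 2, 3 and 4 had 80, 80.4 and 76.3 CPM. The gamma sum was 52.7 ± 2.99, 51.3 ± 4.27, 49.4 ± 4.75 and 47.8 ± 2.58 CPM, with all groups overlapping.

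The sums were also taken without 2 genes in each of these clusters. Without Pcdhac1 and Pcdhac2 the alpha sum was 33.2 ± 4.49 CPM in CCI KO, 30.8 ± 3.96 in CCI WT, 33.3 ± 3.81 in sham KO and 31.8 ± 4.02 in sham WT libraries. Without Pcdhb5 and Pcdhb9 the beta sum was 59.0 ± 3.24, 60.6 ± 4.22, 57.4 ± 5.30 and 56.1 ± 3.12 CPM. Both reduced sums overlapped between all groups. The pairs left out were chosen after their values were seen, and the sums were not tested.

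**Figure D3:**
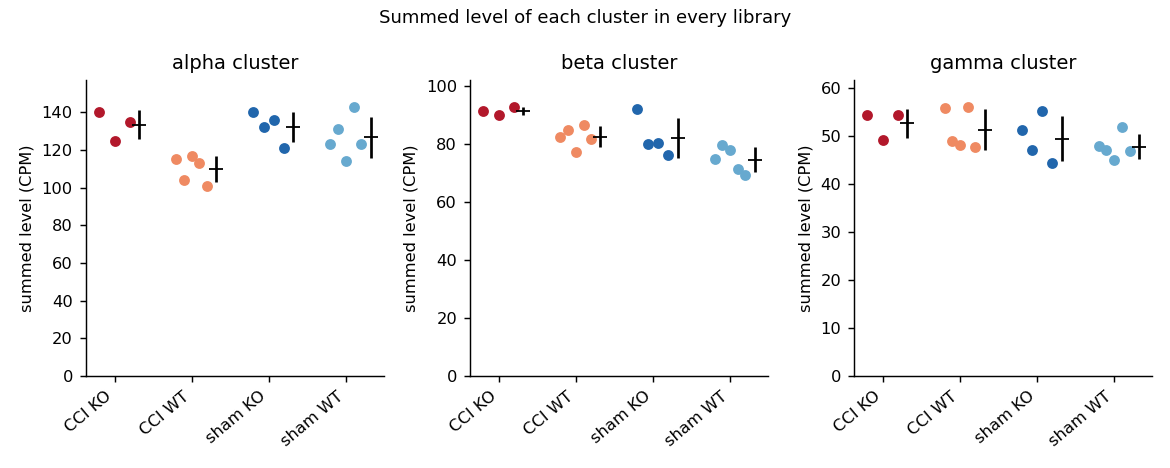
Summed level (CPM) of the alpha, beta and gamma clusters in every library, by group (3 CCI KO, 5 CCI WT, 4 sham KO, 5 sham WT); points are libraries, bars the mean and SD. The alpha sum is lowest in CCI WT (110 ± 6.95 CPM) and the beta sum highest in CCI KO (91.5 ± 1.49 CPM).

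Genotype over both treatments was the comparison with most members called. Taking the mean of the KO minus WT differences in sham and CCI, edgeR's quasi-likelihood test called 3 of 53 members at an adjusted p under 0.05, against 2.55% of all 23972 tested genes. All 3 are beta genes: Pcdhb5 and Pcdhb9 rose, and Pcdhb10 fell. Over all tested genes 0.688% rose and 1.86% fell. Single beta proteins take part in the same cell-surface recognition as the other members, and no separate role of these 3 is stated here. In bulk tissue, fewer cells of a type and less RNA per cell cannot be told apart.

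Pcdhb5 (ENSMUSG00000063687, GRCm39 chromosome 18, 37453434 to 37456968, no exon base shared with another gene) had 6.45, 7.08 and 7.13 CPM in the CCI KO libraries and 4.6, 2.27, 4.41, 3.98 and 4.22 CPM in the CCI WT libraries. The sham KO libraries had 6.21, 6.5, 6.64 and 5.16 CPM, and the sham WT libraries 4.62, 3.98, 3.87, 4.13 and 4.76 CPM. All 7 KO libraries lay above all 10 WT libraries. No other tested member separated the labels in this way, and 0.413% of all tested genes did. The log2 difference was 0.67 ± 0.13 over both treatments (SE, edgeR adjusted p = 0.00324). With each of the 17 libraries left out in turn it stayed past the threshold, at 0.60 to 0.71, and without sham KO libraries 1 and 2 it was 0.65 (edgeR adjusted p = 0.0217).

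By treatment, the Pcdhb5 difference was 0.82 ± 0.19 after CCI (edgeR adjusted p = 0.0374) and 0.52 ± 0.18 in sham (edgeR adjusted p = 0.181), and only the first passed the threshold. The difference in sham was 0.47 without sham KO libraries 1 and 2 (edgeR adjusted p = 0.665). The call after CCI was lost without any of the 3 CCI KO libraries or CCI WT libraries 2, 4 or 5, with edgeR adjusted p-values from 0.0297 to 0.186 over all libraries left out. CCI WT library 2, at 2.27 CPM, stood below the other 4 of its group. As a share of the beta counts, Pcdhb5 took 7.52 ± 0.427% in CCI KO, 4.74 ± 1.24% in CCI WT, 7.48 ± 0.833% in sham KO and 5.75 ± 0.802% in sham WT libraries.

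Pcdhb9 (ENSMUSG00000051242, chromosome 18, 37533908 to 37550127) had 25.0, 27.6 and 24.3 CPM in the CCI KO libraries and 17.7, 18.2, 19.1, 19.2 and 16.6 CPM in the CCI WT libraries. The sham KO libraries had 20.7, 18.5, 17.5 and 17.8 CPM, and the sham WT libraries 16.3, 15.9, 15.3, 15 and 9.37 CPM. KO and WT did not overlap within either treatment, though the CCI WT and sham KO libraries did. Over both treatments the log2 difference was 0.44 ± 0.09 (edgeR adjusted p = 0.00491), which stayed past the threshold in all 17 fits that left out 1 library, at 0.38 to 0.47. Without sham KO libraries 1 and 2 it was 0.40 (edgeR adjusted p = 0.0317). Within CCI it was 0.50 ± 0.13 (edgeR adjusted p = 0.081) and within sham 0.37 ± 0.12 (edgeR adjusted p = 0.152), neither past the threshold. The difference in sham was 0.30 without sham KO libraries 1 and 2.

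The injured groups were also above their shams in Pcdhb9, without a call. The log2 difference between CCI KO and sham KO was 0.46 ± 0.14 (edgeR adjusted p = 0.262), and between CCI WT and sham WT 0.34 ± 0.11 (edgeR adjusted p = 0.119). The libraries of both pairs did not overlap. The share of the beta counts taken by Pcdhb9 was 28.0 ± 2.32% in CCI KO, 22.0 ± 1.65% in CCI WT, 22.7 ± 0.660% in sham KO and 19.1 ± 3.28% in sham WT libraries.

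Pcdhb10 (ENSMUSG00000045657, chromosome 18, 37544717 to 37547567) lies within the span of Pcdhb9 but shares no exon base with it. It had 2.13, 1.49 and 2.11 CPM in the CCI KO libraries and 3.08, 2.98, 3.43, 3.46 and 3.19 CPM in the CCI WT libraries. The sham KO libraries had 1.57, 2.40, 1.79 and 2.47 CPM, and the sham WT libraries 3.95, 3.89, 4.42, 2.01 and 2.94 CPM. The labels did not overlap after CCI and overlapped in sham through sham WT library 4. The log2 difference over both treatments was -0.75 ± 0.17 (edgeR adjusted p = 0.016), opposite in sign to that of Pcdhb9. The call was lost without CCI KO library 3 (edgeR adjusted p = 0.0795) and without sham KO libraries 1 and 2 (-0.72, edgeR adjusted p = 0.0676).

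**Figure D4:**
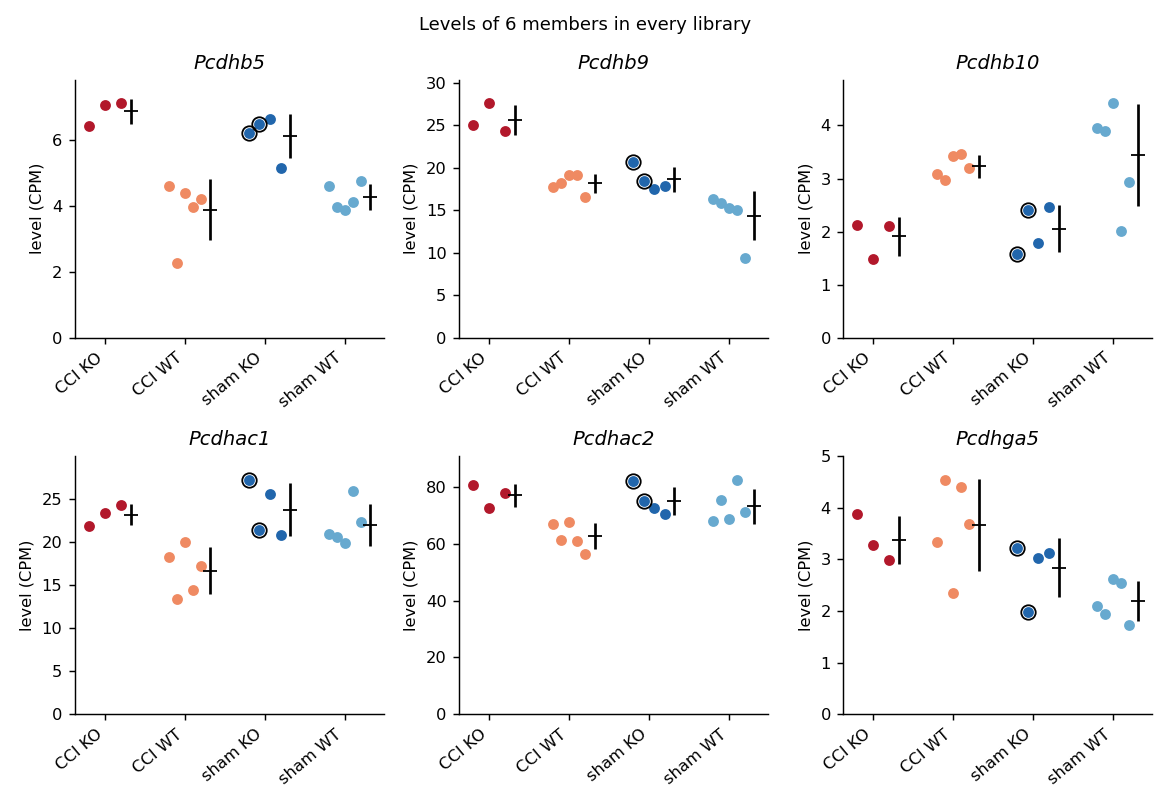
Level (CPM) of Pcdhb5, Pcdhb9, Pcdhb10, Pcdhac1, Pcdhac2 and Pcdhga5 in every library, by group (3 CCI KO, 5 CCI WT, 4 sham KO, 5 sham WT); points are libraries, bars the mean and SD, and black rings mark sham KO libraries 1 and 2. All KO libraries lie above all WT libraries in Pcdhb5 (lowest KO 5.16, highest WT 4.76 CPM), and Pcdhac1 is lowest in CCI WT.

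Over both treatments 34 of all 53 members (64.2%) had a positive log2 difference, against 49.8% of all tested genes, with a median of 0.03 against 0. The alpha cluster had 10 of 12 positive (83.3%) with a median of 0.16, the beta cluster 13 of 21 with 0.03 and the gamma cluster 11 of 20 with 0.02. An unadjusted p under 0.05 was reached by 9 members (17.0%), against 13.3% of all tested genes. Beside the 3 called genes these included Pcdhac1 at 0.30 ± 0.08 (edgeR adjusted p = 0.0617), Pcdhac2 at 0.17 ± 0.05 (edgeR adjusted p = 0.0837) and Pcdhgb5 at -0.68 ± 0.26 (edgeR adjusted p = 0.213). Without sham KO libraries 1 and 2 these were 0.28 for Pcdhac1 (edgeR adjusted p = 0.159), 0.14 for Pcdhac2 (edgeR adjusted p = 0.305) and -0.55 for Pcdhgb5 (edgeR adjusted p = 0.525).

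Within sham, 0 of 53 members were called between KO and WT, against 1% of all tested genes. DESeq2 and limma-voom also called 0, against 2.62% and 1.21% of all tested genes. With edgeR, 5 members (9.43%, against 11.4% of all tested genes) had an unadjusted p under 0.05. These were Pcdhb10, Pcdhb9, Pcdhb5, Pcdhb3 and Pcdha3. The groups did not overlap for 3 of 53 members, Pcdha3, Pcdhb5 and Pcdhb9, and for 3.21% of all tested genes. Pcdha3 was on the low side, with 2.46, 2.63, 2.72 and 3.03 CPM in sham KO and 4.30, 3.07, 4.07, 4.64 and 3.17 CPM in sham WT libraries (log2 difference -0.51 ± 0.22, edgeR adjusted p = 0.346, and -0.41 without sham KO libraries 1 and 2). Pcdhb3 had 4.39, 4.75, 2.78 and 3.48 CPM in sham KO and 2.63, 2.72, 2.94, 2.36 and 1.5 CPM in sham WT libraries, with an overlap at library 3 of each group. Its log2 difference of 0.66 ± 0.23 (edgeR adjusted p = 0.20) was 0.37 without sham KO libraries 1 and 2.

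After CCI, 1 of 53 members was called between KO and WT, Pcdhb5, against 0.684% of all tested genes. The groups did not overlap for 7 of 53 members, and for 8.52% of all tested genes. These were Pcdha5, Pcdhac1, Pcdhac2, Pcdhb5 and Pcdhb9 on the high side in CCI KO and Pcdhb10 and Pcdhgb5 on the low side. An unadjusted p under 0.05 was reached by 8 members (15.1%), against 8.78% of all tested genes. Pcdhgb5 had the largest difference of any member in this comparison, at -1.12 ± 0.39 (edgeR adjusted p = 0.296), with 0.919, 0.435 and 0.978 CPM in CCI KO and 2.35, 1.19, 1.53, 2.04 and 1.35 CPM in CCI WT libraries. DESeq2 and limma-voom each called 4 members, all higher in CCI KO, against 1.69% and 1.83% of all tested genes.

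The alpha C-type genes were among the members higher in CCI KO than in CCI WT without passing the threshold. Pcdhac2 (ENSMUSG00000102697, chromosome 18, 37276444 to 37320716) had 80.6, 72.8 and 78.0 CPM in CCI KO and 67.1, 61.3, 67.6, 61.0 and 56.6 CPM in CCI WT libraries. The log2 difference was 0.30 ± 0.07 (edgeR adjusted p = 0.0667), and without sham KO libraries 1 and 2, which share in the estimate of the spread, the edgeR adjusted p was 0.0404. Pcdhac1 had 21.8, 23.3 and 24.3 CPM in CCI KO and 18.2, 13.3, 20, 14.4 and 17.2 CPM in CCI WT libraries (0.48 ± 0.12, edgeR adjusted p = 0.081). In the sham groups both genes overlapped between KO and WT, with log2 differences of 0.04 for Pcdhac2 and 0.12 for Pcdhac1.

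Injury in wild-type ganglia changed 1 of 53 members, against 3.06% of all tested genes. Pcdhac1 (ENSMUSG00000103255, chromosome 18, 37223066 to 37320716) fell, with a log2 difference of -0.40 ± 0.11 (edgeR adjusted p = 0.043). It had the CCI WT values given above, with a mean of 16.6 ± 2.77 CPM, against 20.9, 20.5, 19.8, 25.9 and 22.3 CPM in the sham WT libraries (21.9 ± 2.43 CPM, SD, n = 5 each). The groups overlapped, since CCI WT library 3 at 20 CPM lay above sham WT library 3 at 19.8 CPM. The call was lost without any of CCI KO libraries 2 and 4, CCI WT libraries 1, 2, 4 and 5 and sham WT libraries 1, 2, 4 and 5, with edgeR adjusted p-values from 0.0129 to 0.143.

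Pcdhac2 and Pcdhga5 lay near the threshold in that comparison. Pcdhac2 had the CCI WT values above, against 68.0, 75.6, 68.7, 82.7 and 71.2 CPM in sham WT libraries, with no overlap and a log2 difference of -0.22 ± 0.07 (edgeR adjusted p = 0.0621). Pcdhga5, a gamma A-type gene, had 3.33, 4.55, 2.34, 4.41 and 3.69 CPM in CCI WT and 2.10, 1.95, 2.62, 2.55 and 1.73 CPM in sham WT libraries (0.74 ± 0.21, edgeR adjusted p = 0.0564), overlapping at CCI WT library 3. Without sham KO libraries 1 and 2 in the fit, the edgeR adjusted p was 0.047 for Pcdhac2 and 0.0422 for Pcdhga5. The groups did not overlap for 3 of 53 members (Pcdhac2, Pcdhb7 and Pcdhb9), and for 4.84% of all tested genes. Over the family the median log2 difference was 0.06, with 30 of 53 positive, against -0.01 over all tested genes. An unadjusted p under 0.05 was reached by 7 members (13.2%), against 13.8% of all tested genes.

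Injury in knockout ganglia called 0 of 53 members with edgeR, against 0.0834% of all tested genes. It also called 0 with DESeq2 and limma-voom, against 0.513% and 0.129% of all tested genes. An unadjusted p under 0.05 was reached by 3 members, Pcdhb9, Pcdhb7 and Pcdha7 (5.66%, against 8.63% of all tested genes). The groups did not overlap for 3 of 53 members (Pcdhb7, Pcdhb9 and Pcdhga8), and for 7.56% of all tested genes. Pcdhb7 had 4.66, 4.11 and 3.84 CPM in CCI KO and 3.56, 2.90, 2.95 and 1.92 CPM in sham KO libraries (0.57 ± 0.22, edgeR adjusted p = 0.417). In wild type it had 4.29, 4.26, 4.24, 4.89 and 4.75 CPM in CCI WT and 3.78, 2.93, 2.88, 2.69 and 3.83 CPM in sham WT libraries (0.48 ± 0.18, edgeR adjusted p = 0.18). The lowest CCI library had 3.84 CPM and the highest sham library 3.83 CPM, and the difference passed the test within neither genotype. The share of all tested genes that separate all CCI from all sham libraries was not computed. Without sham KO libraries 1 and 2 the Pcdhb7 difference in KO was 0.79 (edgeR adjusted p = 0.25), and that of Pcdhb9 was 0.54 (edgeR adjusted p = 0.192). Pcdha7 was on the low side, with 2.81, 2.32 and 3.39 CPM in CCI KO and 3.35, 5.09, 5.35 and 3.59 CPM in sham KO libraries (-0.61 ± 0.25, edgeR adjusted p = 0.468, and -0.65 without sham KO libraries 1 and 2).

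The injury effect was not shown to differ between the genotypes for any member. The interaction called 0 of 53 members and 0% of all tested genes with edgeR. It also called 0 members with DESeq2 and limma-voom, against 0.0876% and 0.0167% of all tested genes. An unadjusted p under 0.05 was reached by 2 members, both alpha C-type genes, against 5.87% of all tested genes. The interaction was 0.26 ± 0.10 for Pcdhac2 (edgeR adjusted p = 0.779) and 0.36 ± 0.17 for Pcdhac1 (edgeR adjusted p = 0.848). The fall of Pcdhac1 in wild type is therefore not shown to be absent in knockout ganglia, where the log2 difference was -0.04 ± 0.13. Without sham KO libraries 1 and 2 the interaction was 0.33 for Pcdhac2 (edgeR adjusted p = 0.931) and 0.40 for Pcdhac1 (edgeR adjusted p = 0.946).

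**Figure D5:**
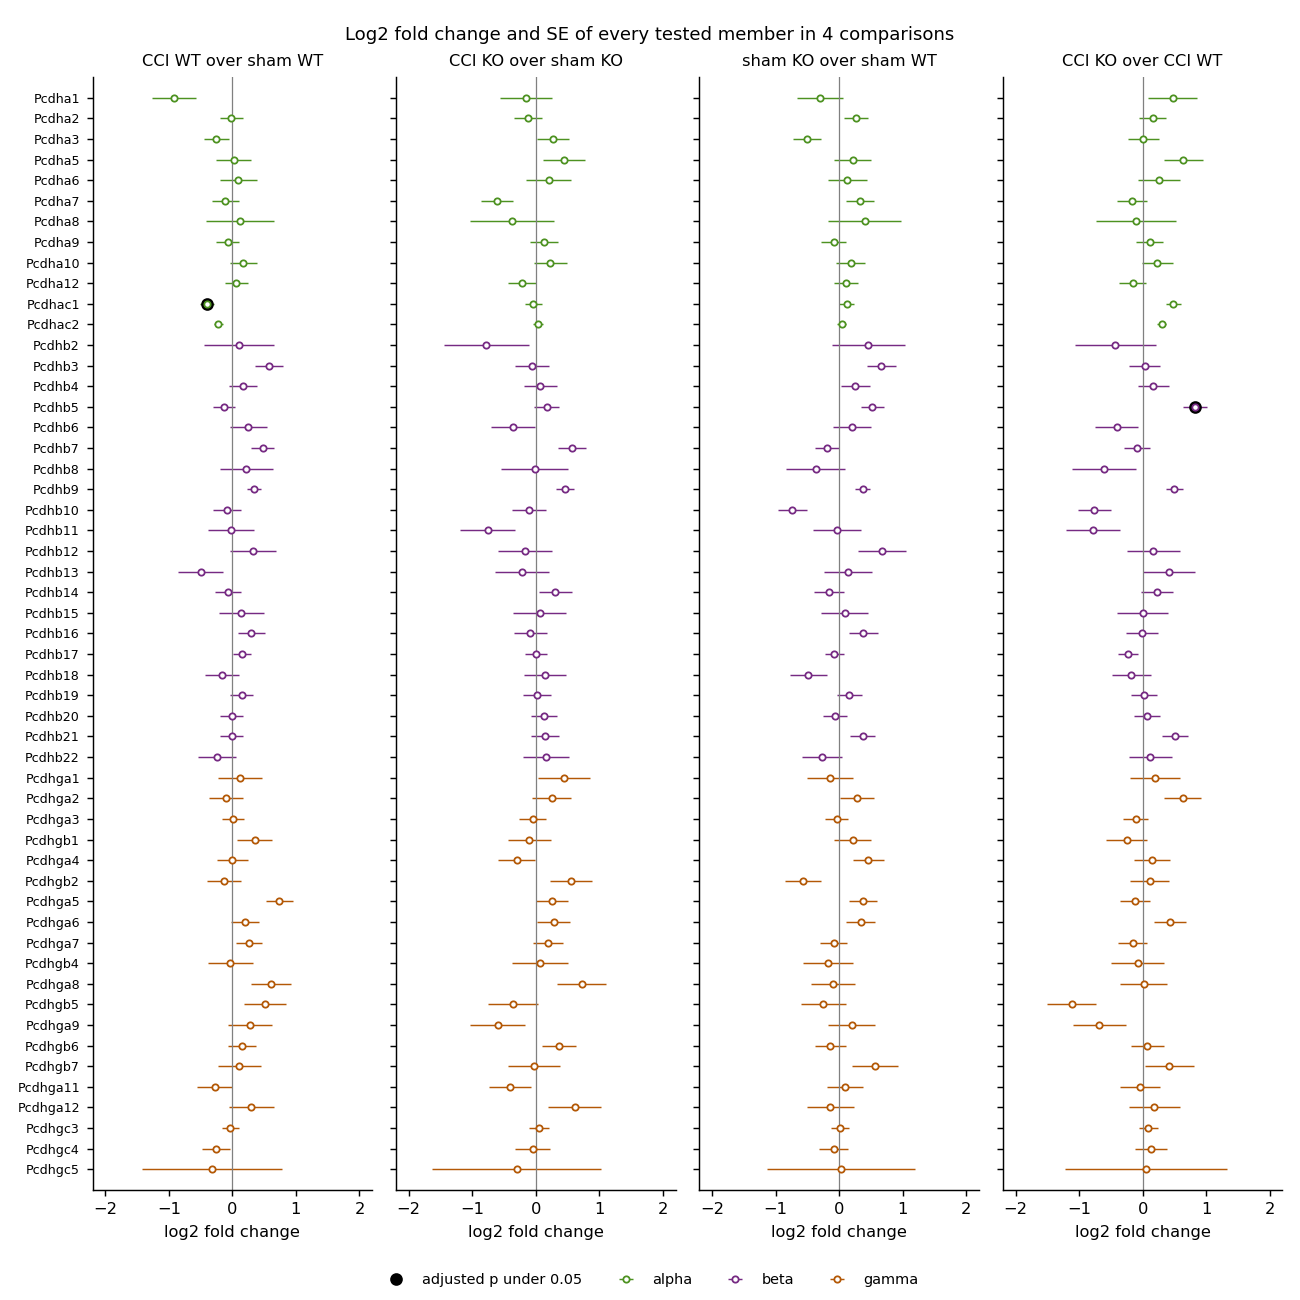
Log2 fold change with SE of each of the 53 tested members in 4 comparisons (CCI WT over sham WT, CCI KO over sham KO, sham KO over sham WT, CCI KO over CCI WT), genes in chromosomal order and coloured by cluster; black points passed an edgeR adjusted p of 0.05. These are Pcdhac1 after injury in wild type (-0.40) and Pcdhb5 by genotype after CCI (0.82).

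Markers of several cell types moved with the labels. Those counted as lower or higher here passed an edgeR adjusted p of 0.05, as did 1.86% and 0.688% of all tested genes over both treatments. Of 8 myelinating Schwann cell markers, 8 were lower in KO over both treatments, and their summed level was 6190 to 7620 CPM in CCI KO, 11100 to 15300 CPM in CCI WT, 4750 to 6700 CPM in sham KO and 10200 to 14600 CPM in sham WT libraries. Of 8 satellite glia markers 3 were lower and 1 higher, with sums of 4990 to 5290, 5910 to 6170, 3980 to 4830 and 5030 to 5450 CPM. Of 6 fibroblast markers 2 were lower, with sums of 832 to 917, 1110 to 2160, 676 to 1180 and 862 to 1610 CPM. The 10 neuron markers had a median log2 difference of 0.07 between KO and WT over both treatments, and their summed level was 16500 to 18200 CPM in CCI KO, 15600 to 16800 CPM in CCI WT, 16000 to 17000 CPM in sham KO and 13600 to 18500 CPM in sham WT libraries. None of these markers was at 0 in any library. Spinal cord markers (4 of 6 tested, 0 called) had a median of 0.50 in the same comparison. Their sums were 10.4 to 14.5 CPM in CCI KO, 6.02 to 8.63 CPM in CCI WT, 10.3 to 11.9 CPM in sham KO and 6.4 to 16.4 CPM in sham WT libraries. Muscle and blood markers (5 of 6 tested, 0 called) had a median of 1.13, with sums that overlapped between the groups. The part of these cell types in the changes of Pcdhb5, Pcdhb9 and Pcdhb10 was not tested.

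Beside the fall of Pcdhac1 in injured wild-type ganglia, 10 of 10 axon injury markers rose, with sums of 1260 to 2120 CPM in CCI WT and 462 to 668 CPM in sham WT libraries. A marker is counted as risen here at an edgeR adjusted p under 0.05, as 562 of all 23972 tested genes were. In the same comparison 3 of 8 macrophage markers rose (67.9 to 137 CPM in CCI WT, 46.2 to 87.0 CPM in sham WT), 4 of 8 satellite glia markers rose, 1 of 10 neuron markers rose and 1 of 6 endothelial and mural markers rose. Their part in the fall of Pcdhac1 was not tested either.

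Genes that regulate or work with the family were described from 3 lists. The list of nonclustered protocadherins and large cadherins, relatives outside the clusters, had 20 of 21 genes tested and 0 called by edgeR for genotype over both treatments (2.55% of all tested genes were), with 6 at an unadjusted p under 0.05 (13.3% of all tested genes). DESeq2 and limma-voom each called 1 of them lower, against 4.28% and 4.48% of all tested genes called in either direction. The smallest p belonged to Fat1, a giant cadherin, at -0.26 ± 0.07 (edgeR adjusted p = 0.0624), or -0.21 without sham KO libraries 1 and 2 (edgeR adjusted p = 0.295). The list median was -0.14, against 0 over all tested genes. In injured wild-type ganglia 0 of the 20 were called by edgeR, DESeq2 or limma-voom (3.06%, 4.71% and 4.97% of all tested genes were). Of the 20, 4 had an unadjusted edgeR p under 0.05 (13.8% of all tested genes), and the median was -0.04.

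Of 25 genes for promoter choice and chromatin (CTCF, cohesin and its loaders, DNA methylation and demethylation, and silencing factors), 1 fell in KO over both treatments and 0 rose, against 1.86% and 0.688% of all tested genes. That gene was Tet1, an enzyme that oxidises methylated cytosine in DNA, with 2.83 ± 0.183 CPM in CCI KO (n = 3), 3.82 ± 0.691 CPM in CCI WT (n = 5), 2.12 ± 0.151 CPM in sham KO (n = 4) and 3.70 ± 0.582 CPM in sham WT libraries (n = 5). Its log2 difference was -0.62 ± 0.14 (edgeR adjusted p = 0.0152), a call lost without CCI KO library 3 and without sham KO libraries 1 and 2. Within sham the log2 difference was -0.80 ± 0.19 (edgeR adjusted p = 0.043), lost in 14 of the 17 fits that left out 1 library and without sham KO libraries 1 and 2 (-0.73, edgeR adjusted p = 0.43), with no low-count filter, with limma-voom and with the replicate block. Ctcf and the cohesin subunits did not pass the threshold in any of the 6 comparisons. In injured wild-type ganglia the list had 0 genes called by edgeR, DESeq2 or limma-voom (3.06%, 4.71% and 4.97% of all tested genes were). It had 3 at an unadjusted edgeR p under 0.05 (13.8% of all tested genes), and a median of 0.04.

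Of 26 genes for signalling partners and proteolysis, 2 rose and 2 fell in KO over both treatments, against 0.688% and 1.86% of all tested genes, with a list median of 0.03. With injury in wild type 3 of the 26 rose, against 562 of all 23972 tested genes, and these 3 are given below. Ptk2b encodes the kinase Pyk2, which the cytoplasmic domains of alpha and gamma protocadherins are known to bind and inhibit. It had 49.2 ± 4.30 CPM in CCI KO, 30.7 ± 1.64 CPM in CCI WT, 35.3 ± 3.28 CPM in sham KO and 30.9 ± 4.81 CPM in sham WT libraries. It rose by 0.44 ± 0.07 in the mean over both treatments (edgeR adjusted p = 0.000505) and by 0.68 ± 0.10 after CCI (edgeR adjusted p = 0.00229). After CCI the KO libraries (44.6 to 53.1 CPM) lay above the WT libraries (28.0 to 32 CPM). In sham Ptk2b was not called, and KO (33.5 to 40.2 CPM) and WT libraries (24.2 to 37.2 CPM) overlapped. The interaction was 0.49 ± 0.14 (edgeR adjusted p = 0.65). Cyfip2, a subunit of the WAVE actin-regulating complex, rose by 0.26 ± 0.06 over both treatments (edgeR adjusted p = 0.0251). That call was lost without sham KO library 1, without both sham KO libraries 1 and 2 (0.16, edgeR adjusted p = 0.125), and without CCI KO library 2 or 4. The Cyfip2 call was also lost with the replicate block.

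The 2 genes that fell in KO also rose with injury in wild type. Marcks, an actin-binding protein kinase C substrate linked to gamma protocadherins in mouse dendrites, had 73.0 ± 3.23 CPM in CCI KO, 94.5 ± 9.61 CPM in CCI WT, 56.2 ± 5.13 CPM in sham KO and 69.5 ± 6.24 CPM in sham WT libraries. It fell by 0.34 ± 0.06 in KO over both treatments (edgeR adjusted p = 0.00112) and rose by 0.44 ± 0.07 with injury in wild type (edgeR adjusted p = 0.000899). Adam10, the protease that sheds protocadherin ectodomains, had 76.3 ± 9.13 CPM in CCI KO, 95.6 ± 10.9 CPM in CCI WT, 60.8 ± 5.28 CPM in sham KO and 78.3 ± 6.39 CPM in sham WT libraries. It fell by 0.34 ± 0.06 in KO over both treatments (edgeR adjusted p = 0.00209) and rose by 0.29 ± 0.08 with injury in wild type (edgeR adjusted p = 0.0456), where the call was lost in 11 of the 17 fits that left out 1 library. That injury call was also lost with DESeq2's size factors in edgeR and with the stricter low-count filter. These comparisons share the sham WT and CCI WT libraries. Without sham KO libraries 1 and 2 the genotype differences over both treatments were 0.47 for Ptk2b, -0.39 for Marcks and -0.30 for Adam10, all past the threshold (largest edgeR adjusted p = 0.0297). Within single treatments, the list had Ptk2b higher and Marcks lower after CCI (-0.37 ± 0.09, edgeR adjusted p = 0.0386, lost in 8 of the 17 fits) and Adam10 lower in sham (-0.36 ± 0.09, edgeR adjusted p = 0.0372, lost in 11 of them and without sham KO libraries 1 and 2 together). The replicate block also lost Marcks after CCI (edgeR adjusted p = 0.128) and Adam10 in sham (edgeR adjusted p = 0.0794). Also in injured wild-type ganglia, the WAVE complex subunit Cyfip1 rose by 0.25 ± 0.06 (edgeR adjusted p = 0.0134), a call lost without CCI WT library 5.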

How the data were processed

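The members and gene lists were chosen with earlier results of these data known. RNA came from a PicoPure isolation and an unstranded SMART-Seq v4 amplification, per the labels' protocols. Per the submitters' processing notes, base calls were converted with bcl2fastq 2.20.0.422 and reads aligned with STAR 2.7.11a to GRCm39. The authors deposited 1 HTSeq-style table of raw counts by Ensembl gene for each library. For the counter, no version, strand setting or annotation is given in the sources used here. Totals and tests leave out its 5 summary lines. Ambiguous reads were 7.63 to 8.17% and reads that the counter gave to no feature 4.03 to 4.55% of all lines.

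Symbols, coordinates and unshared exon bases came from GENCODE M39 on GRCm39, which matched 78168 of 78298 identifiers. Of 46200 genes with a count, 23972 passed filterByExpr (minimum count 10, minimum total 15). Counts were scaled by TMM (factors 0.983 to 1.03) and fitted with 1 mean per group over 17 libraries (13 residual degrees of freedom, biological coefficient of variation 0.346). Genes were tested with edgeR's robust quasi-likelihood test and adjusted by Benjamini-Hochberg over all of them. A result for 1 gene of the signalling list is not reported here. Levels are CPM of the scaled library. The intervals given as ± are the SD between libraries, or the SE of the fit for log2 differences. Members were named if past 0.05 in any of 6 comparisons, among the 3 smallest p of a cluster, among the 3 highest or lowest in sham WT, or C-type. The software was R 4.3.3, edgeR 4.0.16, limma 3.58.1, DESeq2 1.42.0, Python 3.11.15 and Matplotlib 3.10.9.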

Additional observations from a re-analysis of the deposited data

Results flagged for a closer look

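In 8 of 111 groups of 4 or 5 libraries, 1 library stood far from the others in a member's level, where chance flags about 1 in 20 groups. The groups looked at were those of the named members that passed the filter and of the alpha, beta and gamma sums. Among the genes of the comparisons, CCI WT library 2 had 2.27 CPM of Pcdhb5 against 3.98 to 4.6 CPM in the other 4, and sham WT library 5 had 9.37 CPM of Pcdhb9 against 15 to 16.3 CPM. Sham KO library 2 had 1.98 CPM of Pcdhga5 against 3.03 to 3.23 CPM in the other 3. Without it the edgeR adjusted p of Pcdhga5 for injury in wild type passed the threshold.

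In the alpha cluster, CCI WT library 4 had 7.30 CPM of Pcdha12 against 5.28 to 5.71 CPM in the others of its group. Sham WT library 2 had 5.44 CPM of Pcdha2 against 3.08 to 3.75 CPM, and sham WT library 3 had 0.706 CPM of Pcdha5 against 1.86 to 2.18 CPM. In the gamma cluster, CCI WT library 2 had 1.13 CPM of Pcdhga8 against 2.11 to 2.42 CPM, and sham WT library 3 had 10.5 CPM of Pcdhgc3 against 7.47 to 8.08 CPM.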

How the results depend on the processing

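Of the 67 differences of single genes followed through the alternatives, 0 reversed. Others near 0 changed sign, such as Pcdhgc5 over both treatments (-0.81 with the replicate block, 0.04 as reported). The cluster sums moved by less than 1 SD with DESeq2's size factors and with library totals. Leaving out 1 library cannot move a group mean by 1 SD of that group, so the sums could not fail that check. The number of members called for injury in wild type, 1, was 3 with no low-count filter, with a stricter filter (5 or more libraries at 1 CPM), with DESeq2, with limma-voom and without sham KO libraries 1 and 2. Pcdhac2 was added in each of these, with Pcdhb9 in the fit with no filter and Pcdhga5 in the others. The matching shares of all tested genes called were 2.82%, 4.93%, 4.71%, 4.97% and 3.86%, in that order, against 3.06% as reported. For genotype after CCI, 1 call became 4 with no filter, DESeq2 and limma-voom, and 2 with the stricter filter and without sham KO libraries 1 and 2. Of all tested genes, 0.978%, 1.69%, 1.83%, 1.14% and 0.873% were called, in that order, against 0.684% as reported. For genotype over both treatments, 3 calls became 5 with DESeq2 and limma-voom, 4 with no filter and with the stricter filter, and 2 without sham KO libraries 1 and 2. Here 4.28%, 4.48%, 2.41%, 4.56% and 1.59% of all tested genes were called, in that order, against 2.55% as reported. With single libraries left out, the counts ranged from 0 to 3 for injury in wild type, from 0 to 3 for genotype after CCI and from 2 to 5 for genotype over both treatments, and stayed at 0 in the other comparisons. The share of all tested genes ranged from 1.78 to 4.2% for injury in wild type. It ranged from 0.0701 to 0.963% for genotype after CCI and from 1.54 to 4.21% for genotype over both treatments. The cause of these moves was not tested.

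Over all genes, the alternatives other than single libraries left out gave 745 to 1301 calls for injury in wild type (733 as reported), 11 to 224 for injury in knockout (20), 37 to 702 for genotype in sham (240), 91 to 452 for genotype after CCI (164), 402 to 1112 for genotype over both treatments (612) and 0 to 77 for the interaction (0). The lowest count for genotype in sham came without sham KO libraries 1 and 2, and the highest in every comparison with no filter. DESeq2 called 21 genes and limma-voom 4 for the interaction.

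The 22 same-numbered pairs of libraries had correlations of -0.013 to 0.118, with 1 over 0.1. A library was closest to its own number in 21 of 44 checks, each against 1 other group of 3 to 5 libraries. How many would match without pairing was not computed. The matches are a hint of pairing from the data and not from the design. The numbers were not taken to pair the samples because the labels do not say so and not every pair passed 0.1. The main tests therefore treat the libraries as unpaired, and any pairing is not in their p-values. With the replicate number as a block, 2 members were called for injury in wild type (Pcdhac1 and Pcdhb9), 1 for genotype after CCI and 3 over both treatments. With this block 3.23%, 0.38% and 1.68% of all tested genes were called, in that order.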
